A study of Mus musculus with 22 samples.

Results

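Platelet-derived growth factor (PDGF) signalling was followed through 5 genes, the receptors Pdgfra and Pdgfrb and the ligands Pdgfa, Pdgfb and Pdgfc. The genes were taken by symbol, and all 5 were found among the 55367 symbols of the deposited gene table. All 5 passed the filter on low counts.

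PDGF ligands are secreted dimers that bring receptor tyrosine kinase chains together at the cell surface. PDGFRA binds PDGF-A, PDGF-B and PDGF-C, while PDGFRB mainly binds PDGF-B and is best known from pericytes, smooth muscle and fibroblasts. In the mouse blastocyst, PDGFRA is an early marker of the primitive endoderm (PrE), the layer that goes on to form the extra-embryonic endoderm, and PDGF-A from neighbouring cells acts on it there.

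RNA-seq had been made from mouse embryonic stem cells (ESC) and PrE stem cells (PrESC) in a study of EZH2, the enzyme of Polycomb repressive complex 2 that methylates histone H3 at lysine 27. The table held 22 libraries in 10 groups, with 13.6 to 26.3 M counts per library. E14 ESC and KO10 SL had 3 libraries each, and every other group had 2. The labels do not say that libraries of a group came from separate cultures, so p-values measure only the spread between these libraries.

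The groups were as follows. C57 ESC and C57 PrESC were wild-type C57 cells kept in ESC culture with LIF and in PrESC culture. iPrE1 and iPrE2 were a pair of wild-type E14 lines of PrE stem cells that had been induced with the EZH2 inhibitor EPZ-6438 and kept in PrESC culture. TG2A ESC and E14 ESC were wild-type E14 lines in LIF medium. KO10 SL was a single Ezh2-null E14 clone, clone 10, in LIF and serum, and rescued KO10 was the same clone with Ezh2 restored. TG2A S2iL and KO10 S2iL were wild-type and Ezh2-null cells in LIF with 2i, a pair of kinase inhibitors that hold ESC in a naive state. The names SL and S2iL share the letter S, so serum may have been in both media. Every Ezh2-null library came from 1 clone, and a property of that clone cannot be told apart from the loss of Ezh2 except by the rescue. Ezh2 in rescued KO10 was above the wild-type level, so a return of Ezh2 and an excess of it cannot be told apart there. TG2A ESC served as the control of iPrE1, iPrE2 and TG2A S2iL and as a further control of KO10 SL, so those comparisons share its 2 libraries.

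Ezh2 itself was at 0.0813, 0.0409 and 0.0424 CPM (counts scaled to a common library size) in KO10 SL, at 0.302 and 0 in KO10 S2iL, at 173 to 184 in E14 ESC and at 495 and 533 in rescued KO10. Rescued KO10 was thus 2.86-fold above E14 ESC for Ezh2 (edgeR adjusted p = 1.25e-04). The summed CPM of 10 fixed PrE markers ran from 10136 to 14205 in the PrE libraries and from 127 to 632 in the wild-type ESC libraries in LIF. KO10 SL lay between, at 1871, 1595 and 1599. A sum of 8 ESC markers was 558 to 1144 in the PrE libraries and 3210 to 5376 in all others. The second C57 PrESC library stood apart, with a sum of 15 fibroblast markers at 2257 CPM, against 47.9 in the first and 388 to 590 in the iPrE libraries. The second C57 ESC library stood apart in the same way to a lesser extent, with a fibroblast sum of 388 and Col1a1 at 146 CPM, against 90.3 and 7.47 in the first and sums of 42.5 to 121 in the libraries other than C57 and PrE. The macrophage marker sum of the second C57 PrESC library was 143, against 38.5 in the first C57 PrESC library and 5.70 to 18.2 in the libraries of the other groups.

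Pdgfra lies on chromosome 5 of GRCm38 (chr5:75152292-75198215, plus strand, ENSMUSG00000029231). Pdgfa is on the same chromosome (chr5:138976014-138997370, minus strand, ENSMUSG00000025856). Pdgfc is on chromosome 3 (chr3:81036416-81214040, plus strand, ENSMUSG00000028019). Pdgfb is on chromosome 15 (chr15:79995874-80014977, minus strand, ENSMUSG00000000489). These are the whole gene spans, exons and introns together.

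Polycomb repression in ESC is commonly found at promoters rich in CG dinucleotides. RefSeq start sites on GRCm38.p6 were found for 3 of the 5 genes, Pdgfra, Pdgfc and Pdgfa, and these are shown for that reason. Bases after the start were not read, and whether Polycomb acts on these genes was not tested. The 250 bases before each start are printed 5′ to 3′ on the strand of the gene, with CG dinucleotides in capitals. The positions are chr5:75152001-75152250 for Pdgfra, chr3:81036166-81036415 for Pdgfc, and chr5:138994282-138994531 and chr5:138994945-138995194 for the first and second Pdgfa start in order of coordinate.
Pdgfra: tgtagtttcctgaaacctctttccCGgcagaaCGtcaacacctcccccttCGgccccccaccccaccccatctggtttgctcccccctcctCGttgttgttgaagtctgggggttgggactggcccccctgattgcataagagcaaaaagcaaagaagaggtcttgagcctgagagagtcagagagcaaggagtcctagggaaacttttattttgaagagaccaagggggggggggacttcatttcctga
Pdgfc: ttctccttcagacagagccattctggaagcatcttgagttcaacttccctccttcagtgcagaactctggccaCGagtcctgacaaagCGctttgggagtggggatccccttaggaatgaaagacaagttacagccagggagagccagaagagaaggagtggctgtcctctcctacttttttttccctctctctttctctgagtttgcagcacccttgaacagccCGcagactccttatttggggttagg
Pdgfa, first start: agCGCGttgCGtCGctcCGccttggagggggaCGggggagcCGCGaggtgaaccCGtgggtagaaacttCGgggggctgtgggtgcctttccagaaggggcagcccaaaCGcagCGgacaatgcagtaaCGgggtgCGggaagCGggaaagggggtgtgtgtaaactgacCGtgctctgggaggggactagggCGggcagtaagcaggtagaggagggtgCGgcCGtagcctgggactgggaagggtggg
Pdgfa, second start: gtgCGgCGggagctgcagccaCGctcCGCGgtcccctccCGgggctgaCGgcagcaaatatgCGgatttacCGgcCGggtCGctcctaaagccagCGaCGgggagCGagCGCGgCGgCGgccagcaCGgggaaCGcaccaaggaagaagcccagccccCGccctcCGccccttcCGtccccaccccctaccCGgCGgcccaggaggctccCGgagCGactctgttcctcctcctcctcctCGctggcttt
The Pdgfra window held 4 CG dinucleotides and the Pdgfc window 3, while the Pdgfa windows held 19 and 28. Over 32851 RefSeq promoter windows of the same length the median was 6, and 44.4% had as few as Pdgfra or fewer, 37.8% as few as Pdgfc, and 82.1% and 93.2% as few as the Pdgfa windows. The GC content was 54.4% for Pdgfra, 50.8% for Pdgfc, and 66.4% and 72.4% for Pdgfa. The letters of a GATA site (AGATAA or AGATAG or TGATAA or TGATAG, either strand) occurred in 26.5% of all windows and in none of these 4. The letters of a SOX site (AACAAT or AACAAAG, either strand) occurred in 13.8% of all windows and likewise in none of the 4. A GC box (GGGCGG, either strand) was found in 32.7% of all windows, at 1 place in the first and 2 places in the second Pdgfa window.

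Pdgfra was by far the most variable of the receptors across the groups. In the PrE cells, iPrE1 had 554 and 628 CPM, iPrE2 had 821 and 632, and C57 PrESC had 623 and 368. Those 6 libraries lay above the 16 others without overlap. KO10 SL came next, at 31.5, 22.9 and 19.3 CPM, and did not overlap the wild-type E14 lines. C57 ESC was at 19.7 and 8.08 CPM, so that its higher library fell within the range of KO10 SL. The remaining groups were low: KO10 S2iL at 4.53 and 4.81, TG2A ESC at 2.45 and 6.50, TG2A S2iL at 1.98 and 1.40, rescued KO10 at 1.94 and 1.39, and E14 ESC at 1.56, 1.08 and 0.746. The E14 ESC values rest on 26, 18 and 20 counts, whereas each PrE library had at least 6331 counts. In bulk RNA, fewer cells of a type and less RNA per cell cannot be told apart, and this holds for the KO10 SL level.

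Ordered by group mean, Pdgfra ran from 727 ± 134 CPM (SD, n = 2) in iPrE2 through 591 ± 52.2 in iPrE1, 496 ± 180 in C57 PrESC, 24.6 ± 6.27 (n = 3) in KO10 SL, 13.9 ± 8.19 in C57 ESC, 4.67 ± 0.198 in KO10 S2iL, 4.47 ± 2.87 in TG2A ESC, 1.69 ± 0.41 in TG2A S2iL and 1.67 ± 0.387 in rescued KO10 to 1.13 ± 0.408 (n = 3) in E14 ESC. Neighbours were set apart by more than the sum of their SDs at only 2 steps of this order. Those steps were from C57 PrESC to KO10 SL and from C57 ESC to KO10 S2iL.

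**Figure D1:**
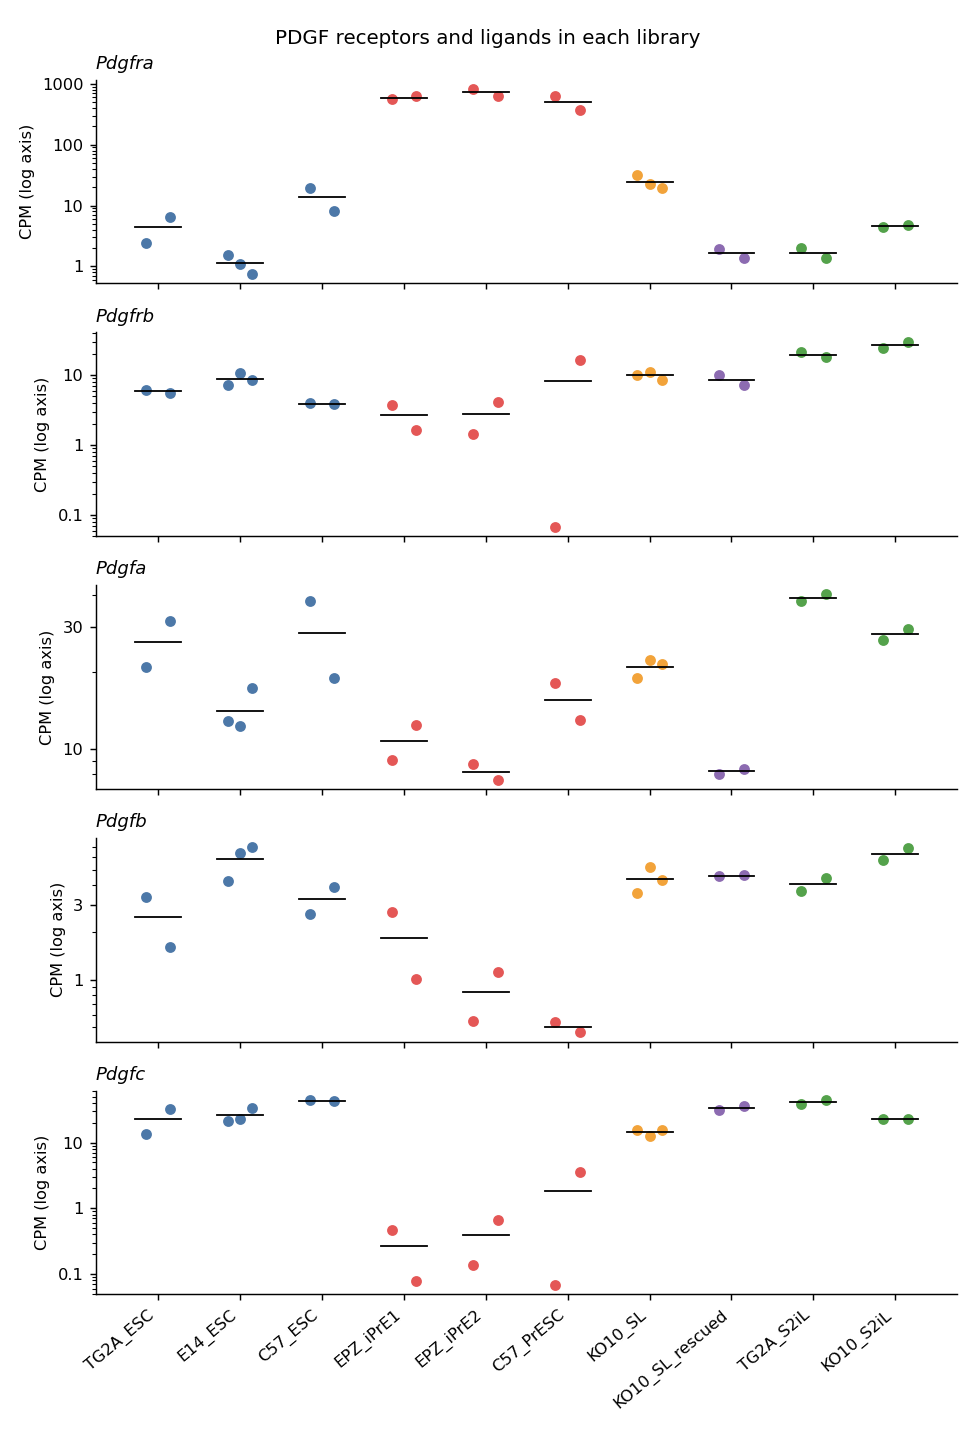
Level of each gene in CPM on a log axis, with 1 point per library and a bar at the group mean, for the 10 groups. Pdgfra is at 368 to 821 CPM in the 6 PrE libraries and at 31.5 or below elsewhere, whereas Pdgfc is at 3.55 or below in the PrE libraries and at 12.7 to 44.4 elsewhere.

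Pdgfrb, the receptor of mural cells (chr18:61045150-61085061, plus strand, ENSMUSG00000024620), showed no PrE pattern of that kind. It was highest under 2i, at 24.8 and 30.1 CPM in KO10 S2iL and at 21.2 and 18.2 in TG2A S2iL, and these 4 libraries lay above all others. In LIF medium it was at 10, 11.2 and 8.61 in KO10 SL, 7.13, 10.8 and 8.58 in E14 ESC, 9.98 and 7.29 in rescued KO10, 6.19 and 5.56 in TG2A ESC and 3.97 and 3.89 in C57 ESC. The E14 ESC, KO10 SL and rescued KO10 ranges overlapped. The iPrE lines were at 3.69 and 1.64 (iPrE1) and 1.44 and 4.15 (iPrE2), on 21 to 63 counts a library. The C57 PrESC libraries were at 0.0677 and 16.6 CPM, that is at 1 and 286 counts, so the group mean of 8.35 ± 11.7 describes neither.

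Among the ligands, Pdgfa was detected everywhere within a narrow range, from 7.63 to 40.1 CPM over the 22 libraries. It was at 37.9 and 40.1 in TG2A S2iL, 37.8 and 18.9 in C57 ESC, 26.7 and 29.4 in KO10 S2iL, 21.0 and 31.5 in TG2A ESC, and 18.9, 22.3 and 21.6 in KO10 SL. Lower values were found in C57 PrESC (18.1 and 13.0), E14 ESC (12.9, 12.3 and 17.3), iPrE1 (9.14 and 12.5), rescued KO10 (8.04 and 8.41) and iPrE2 (8.79 and 7.63). The iPrE1 and iPrE2 libraries all lay below TG2A ESC, and KO10 SL lay above both E14 ESC and rescued KO10. Exons of Pdgfa overlap those of the antisense gene 6330403L08Rik, for which up to 97.17 counts were listed in a library. The strand setting of the counting is not given in the sources used here, so reads of the pair cannot be told apart with certainty.

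Pdgfb, whose product binds both receptors, stayed below 7 CPM in every library. The libraries were at 5.79 and 6.82 CPM in KO10 S2iL, 4.25, 6.34 and 6.94 in E14 ESC, 4.55 and 4.61 in rescued KO10, 3.58, 5.23 and 4.28 in KO10 SL and 3.66 and 4.44 in TG2A S2iL. C57 ESC was at 2.60 and 3.89, TG2A ESC at 3.38 and 1.62, iPrE1 at 2.69 and 1.01, iPrE2 at 0.549 and 1.12 and C57 PrESC at 0.542 and 0.465. C57 PrESC and iPrE2 lay below their ESC controls without overlap, while iPrE1 overlapped TG2A ESC.

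Pdgfc, whose product is secreted in a latent form that proteases activate, was the ligand with the widest range. It was at 43.7 and 42.8 CPM in C57 ESC, 38.0 and 44.4 in TG2A S2iL, 31.2 and 35.6 in rescued KO10, 21.0, 22.6 and 33.8 in E14 ESC and 13.3 and 32.5 in TG2A ESC. The Ezh2-null libraries were at 22.7 and 22.8 in KO10 S2iL and at 15.4, 12.7 and 15.4 in KO10 SL. In the PrE libraries it was nearly absent, with iPrE1 at 0.461 and 0.078, iPrE2 at 0.137 and 0.658, and C57 PrESC at 0.0677 and 3.55, from 1 to 61 counts. Every PrE library was below every other library.

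Per kilobase of exon, which allows levels of different genes to be set side by side, the PrE cells had the highest receptor level and the lowest ligand level. The receptors together were at 59.4 CPM per kb in iPrE1, 73.0 in iPrE2 and 51.0 in C57 PrESC, against 1.52 in TG2A ESC, 1.73 in E14 ESC, 2.10 in C57 ESC and 4.27 in KO10 SL. Pdgfra made up 98.8 to 99.5% of that sum in iPrE1, 98.8 to 99.7% in iPrE2 and 92.4 to 100% in C57 PrESC. Its share was 52.7 to 63.2% in KO10 SL and 53.2 to 73% in C57 ESC, but 17.8 and 39.0% in TG2A ESC, 4.54 to 10.7% in E14 ESC, 4.04 to 4.86% in TG2A S2iL, 9.47 to 9.61% in rescued KO10 and 8.04 to 9.08% in KO10 S2iL. Thus Pdgfrb was the larger part of the receptor sum in TG2A ESC, E14 ESC and rescued KO10 and under 2i, and Pdgfra in the PrE cells, KO10 SL and C57 ESC.

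The ligand sum, here with Pdgfd as the fourth ligand gene, was 4.04 CPM per kb in iPrE1, 3.13 in iPrE2 and 6.32 in C57 PrESC, against 13.5 in TG2A ESC, 11.1 in E14 ESC and 18.7 in C57 ESC. Pdgfa was the main part of it in the PrE cells, with mean shares of 85.3% in iPrE1, 84.1% in iPrE2 and 78.5% in C57 PrESC, while Pdgfc had 1.36%, 2.48% and 5.75%. In wild-type ESC in LIF the pair was closer, with Pdgfa at 41.4% and Pdgfc at 45.6% in E14 ESC. The shares were 47.3% and 46.5% in C57 ESC and 63.0% and 31.8% in TG2A ESC. KO10 SL had 62.7% Pdgfa and 26.8% Pdgfc, not far from TG2A ESC, and rescued KO10 had 25.5% and 63.2%. These shares are given as a description, without a test.

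**Figure D2:**
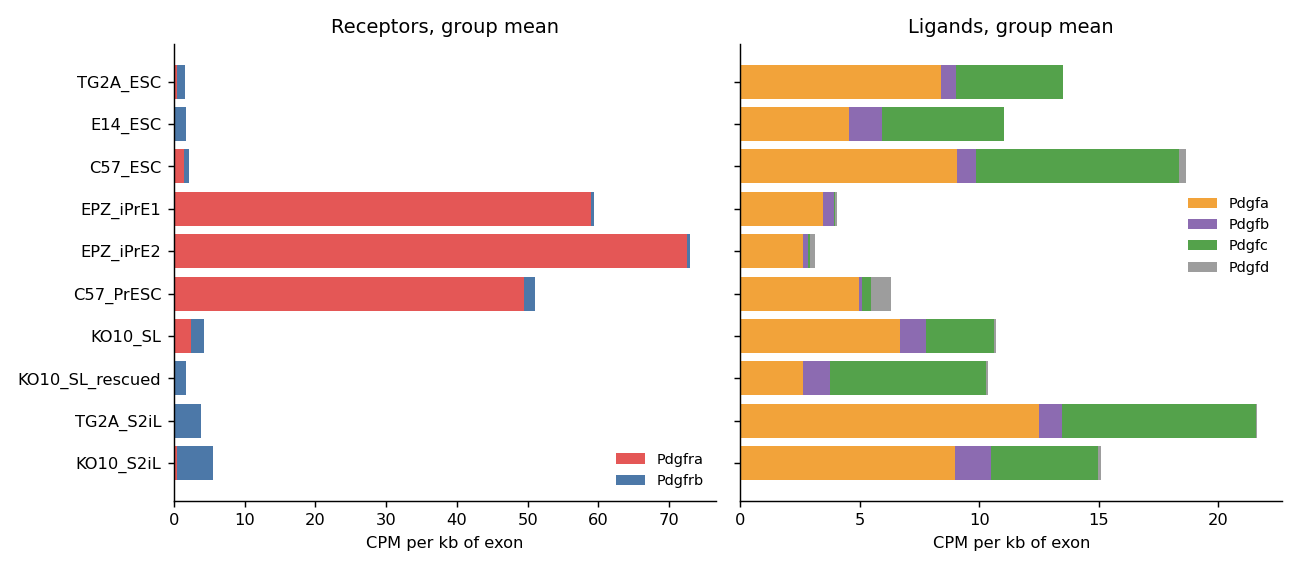
Group mean levels per kilobase of exon of the receptor genes and of the ligand genes, stacked by gene from 0, for the 10 groups. The receptor bars of the PrE groups reach 51.0 to 73.0 CPM per kb and are nearly all Pdgfra, while their ligand bars reach 3.13 to 6.32 and are mostly Pdgfa.

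The first comparison asked how the receptor and ligand genes differ between PrE stem cells and ESC. Pdgfra rose in both EPZ-induced lines and in C57 PrESC, and Pdgfa and Pdgfc fell in all 3. Pdgfb fell in iPrE2 and C57 PrESC, and Pdgfrb passed the test in none of them in the filtered fit over all groups. Changes are log2 ratios from edgeR's quasi-likelihood test over 17547 genes, called at a Benjamini-Hochberg adjusted p below 0.05. By this rule 3 of 5 genes were called in iPrE1, where 60.1% of all genes were (27.9% higher and 32.2% lower), 4 of 5 in iPrE2, where 62.2% were (28.8% and 33.4%), and 4 of 5 in C57 PrESC, where 60.6% were (27.3% and 33.4%). The count of called members was thus not far from that of genes at large.

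The size of the Pdgfra change was 7.04 on the log2 scale (SE 0.48, edgeR adjusted p = 2.79e-09), or 132-fold, in iPrE1 against TG2A ESC. In iPrE2 it was 7.34 (SE 0.485, adjusted p = 1.83e-09), or 162-fold. C57 PrESC against C57 ESC gave 5.16 (SE 0.43, adjusted p = 2.98e-08), or 35.8-fold. Leaving out the second TG2A ESC library, the higher of the pair, moved the iPrE1 and iPrE2 values to 7.93 and 8.22, and leaving out the first C57 ESC library moved the C57 value to 5.96. With the second C57 PrESC library left out, that of the high fibroblast sum, the C57 value was 5.48 (adjusted p = 1.20e-08). That library's own level of 368 CPM was the lowest of the 6, so leaving it out could only raise the C57 PrESC mean.

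The Pdgfra change was larger in the EPZ-induced lines than in C57, by 2.03 (SE 0.534, edgeR adjusted p = 0.00703), or 4.09-fold. It was the 1 member of 5 called for this difference, against 35.1% of all genes. The call was lost without the first C57 ESC library, at 1.25 (adjusted p = 0.0706), and when only the compared groups were fitted, at 2.04 (adjusted p = 0.0705). The PrE levels themselves overlapped (554 to 821 against 368 and 623 CPM), and the ESC levels did not (2.45 and 6.50 against 8.08 and 19.7). The strain, the line and the way in which the PrE cells were obtained differ together between these comparisons and cannot be told apart. Between iPrE1 and iPrE2 Pdgfra differed by 0.30 (SE 0.353, adjusted p = 0.801). By edgeR 0 of 5 members and 3.91% of all genes were called between those lines, with 1 member at an unadjusted p below 0.05 and 0 called by DESeq2.

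For Pdgfc the log2 change was -6.37 in iPrE1 (SE 0.892, edgeR adjusted p = 1.08e-05), -5.81 in iPrE2 (SE 0.821, adjusted p = 1.11e-05) and -4.52 in C57 PrESC (SE 0.664, adjusted p = 1.88e-05). With 1 to 61 counts in the PrE libraries the sizes moved much with single libraries, from -8.10 to -5.56 in iPrE1, from -7.31 to -5.01 in iPrE2 and from -9.19 to -3.61 in C57. In C57 the lowest value was that without the second C57 PrESC library and the highest that without the first. The C57 call was lost when only the compared groups were fitted (adjusted p = 0.0636).

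Pdgfa changed by -1.28 in iPrE1 (SE 0.286, edgeR adjusted p = 9.88e-04), by -1.68 in iPrE2 (SE 0.29, adjusted p = 9.13e-05) and by -0.87 in C57 (SE 0.278, adjusted p = 0.0126). The C57 call ended without the first C57 ESC library (-0.26, adjusted p = 0.43), without the second C57 PrESC library (-0.66, adjusted p = 0.106) and with only the compared groups (adjusted p = 0.176). Pdgfb changed by -2.68 in C57 (SE 0.506, adjusted p = 2.34e-04) and by -1.57 in iPrE2 (SE 0.481, adjusted p = 0.00931), and its value in iPrE1 was -0.43 (SE 0.451, adjusted p = 0.424). The iPrE2 call was lost without the first TG2A ESC library (-0.93, adjusted p = 0.163), without the first iPrE2 library (-1.16, adjusted p = 0.105) and with only the compared groups (adjusted p = 0.0601).

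Pdgfrb had values of -1.14 (SE 0.934, edgeR adjusted p = 0.306) in iPrE1, -1.07 (SE 0.918, adjusted p = 0.327) in iPrE2 and 1.10 (SE 0.88, adjusted p = 0.293) in C57. Without a filter on low counts all 3 were called at nearly the same size (-1.14, -1.08 and 1.09, adjusted p = 0.00194, 0.00293 and 0.00152). The C57 value depended on which PrESC library was kept: it was 2.08 (adjusted p = 3.96e-04) without the first and -5.73 (adjusted p = 7.56e-05) without the second. The 6 PrE libraries also differed in the fibroblast collagen gene Col1a1. In order of Col1a1, the libraries had Col1a1 at 7.41, 7.79, 14.2, 56.1, 88.2 and 709 CPM and Pdgfrb at 1.64, 0.0677, 1.44, 3.69, 4.15 and 16.6. Pdgfc in the same order was at 0.078, 0.0677, 0.137, 0.461, 0.658 and 3.55, and Pdgfra at 628, 623, 821, 554, 632 and 368. The 3 libraries with the most Col1a1 had the most Pdgfrb and Pdgfc, and the lowest Pdgfra was in the library with the highest Col1a1. Fibroblasts are known to carry both receptors. Of the 14 other fibroblast markers, 11 were higher in the 3 libraries with the most Col1a1 than in the other 3, and 11 were highest in the second C57 PrESC library. The exceptions to the first count were Fap, detected in 2 of the 6 libraries, Fbln1 and Tcf21. Fbln1 was at 263 to 362 CPM in the iPrE libraries and at 18.2 and 39.6 in C57 PrESC, and Tcf21 was listed at 0 in all 6. In the iPrE and C57 PrESC libraries, 12 to 14 of the 15 fibroblast markers were detected and 1 to 3 were at 0. The summed level of 10 mural and endothelial markers was 7.45 and 122 CPM in the C57 PrESC libraries and 16.5 to 31.6 in the iPrE libraries. Of the 13 fibroblast markers tested, 6 were called higher in iPrE1, 8 in iPrE2 and 3 in C57 PrESC (with 1 lower). Of all genes, 27.9%, 28.8% and 27.3% were called higher, so the C57 count was near that of genes at large. The part of the fibroblast markers in the Pdgfrb and Pdgfc values was not tested.

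**Figure D3:**
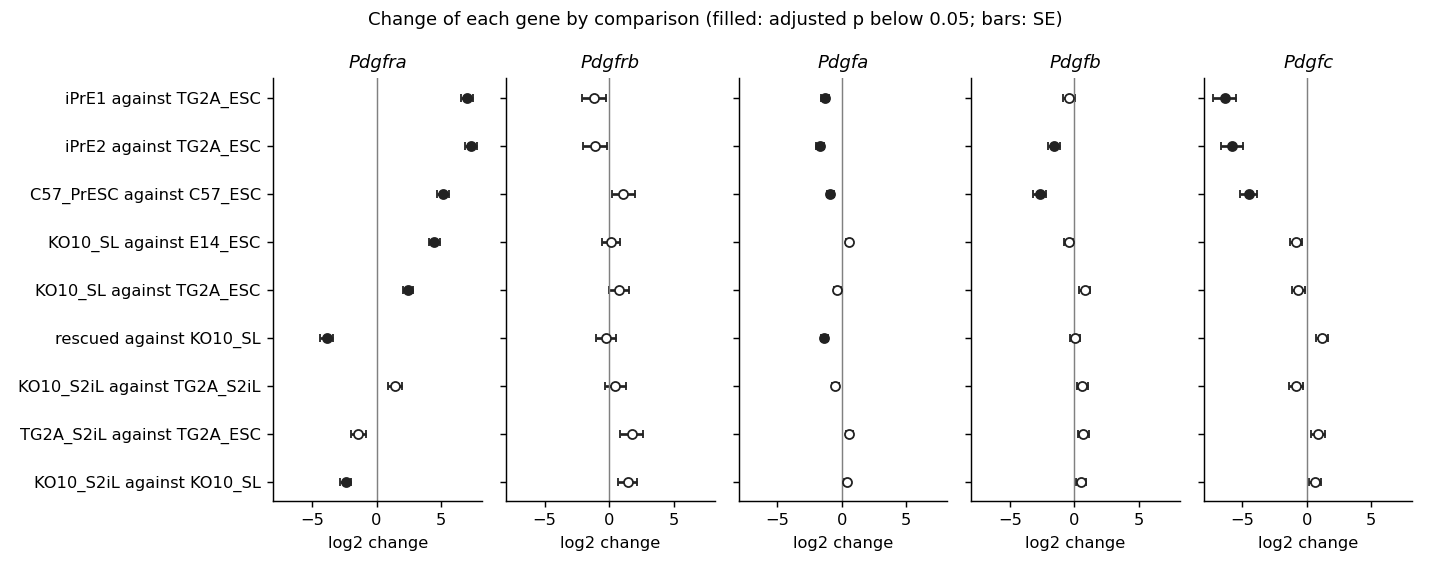
Log2 change of each gene with its standard error, with 1 panel per gene, 1 row for each of 9 comparisons and filled points where the edgeR adjusted p was below 0.05. Pdgfra is at 5.16 to 7.34 in the PrE comparisons and 4.50 in KO10 SL against E14 ESC, and Pdgfc at -6.37 to -4.52 in the PrE comparisons.

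The next comparison asked what the loss of Ezh2 did in ESC kept in LIF and serum. Pdgfra rose in the Ezh2-null clone and fell when Ezh2 was restored. Pdgfa fell with the restoration as well, and the other members passed neither test in the fit over all groups. Against E14 ESC, 1 of 5 members was called, where 48.6% of all genes were (25.8% higher and 22.7% lower). In rescued KO10 against KO10 SL, 2 of 5 were called, where 45.0% of all genes were (20.9% higher and 24.1% lower).

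The Pdgfra change was 4.50 (SE 0.422, edgeR adjusted p = 4.06e-07), or 22.6-fold, against E14 ESC, with all 3 knockout libraries above all 3 controls. Against the other wild-type line, TG2A ESC, it was 2.46 (SE 0.405, adjusted p = 3.54e-04), or 5.50-fold, and 3.35 without the second TG2A ESC library. Here too 1 of 5 members was called, beside 27.7% of all genes. Restoring Ezh2 changed Pdgfra by -3.88 (SE 0.47, adjusted p = 7.06e-06), and rescued KO10 differed from E14 ESC by 0.62 (SE 0.606, adjusted p = 0.834). None of the members was called between rescued KO10 and E14 ESC by edgeR (0 of 5, beside 0.108% of all genes) or by DESeq2, and 1 had an unadjusted p below 0.05. That gene was Pdgfa, at -0.79 (SE 0.265, adjusted p = 0.358).

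Pdgfa was 2.54-fold lower in rescued KO10 than in KO10 SL, a log2 change of -1.35 (SE 0.268, edgeR adjusted p = 6.65e-04). In KO10 SL against E14 ESC it was at 0.56 (SE 0.226, adjusted p = 0.0516), and the direction was the same in all alternatives of that comparison. That value was called without the third E14 ESC library (0.73, adjusted p = 0.029), by DESeq2 (adjusted p = 0.0427), without a filter on low counts (adjusted p = 0.00579) and with only the compared groups (adjusted p = 0.00494). Against TG2A ESC, Pdgfa in KO10 SL had the opposite direction, at -0.33 (SE 0.247, edgeR adjusted p = 0.346), with overlapping libraries. It was at 0.02 without the second TG2A ESC library. Pdgfc was at -0.83 (SE 0.442, adjusted p = 0.131) in KO10 SL and at 1.2 (SE 0.483, adjusted p = 0.0529) on restoration, with no overlap of libraries in either comparison. Both Pdgfc values were called with only the compared groups fitted (-0.86, adjusted p = 8.14e-04, and 1.24, adjusted p = 4.20e-07) and without a filter on low counts (-0.81, adjusted p = 3.56e-05, and 1.18, adjusted p = 1.70e-08). With TG2A ESC as the control, Pdgfc in KO10 SL was at -0.66 (SE 0.488, edgeR adjusted p = 0.336), with overlapping libraries. It was called without a filter on low counts (-0.61, edgeR adjusted p = 0.0142) and was at 0.15 without the second TG2A ESC library. Pdgfrb was at 0.17 (SE 0.685, adjusted p = 0.858) and Pdgfb at -0.42 (SE 0.337, adjusted p = 0.313) in KO10 SL against E14 ESC.

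The knockout level of Pdgfra was far from that of the PrE cells. Against the mean of iPrE1 and iPrE2 it was lower by 26.6-fold in KO10 SL (log2 change -4.74, SE 0.334, edgeR adjusted p = 1.91e-09). All 5 members were called in this comparison, as were 72.1% of all genes. The other 4 were higher in KO10 SL, Pdgfc by 5.43 (SE 0.628, adjusted p = 7.85e-07), Pdgfrb by 1.86 (SE 0.681, adjusted p = 0.0217), Pdgfb by 1.80 (SE 0.341, adjusted p = 1.67e-04) and Pdgfa by 1.15 (SE 0.214, adjusted p = 1.43e-04). The Pdgfrb call was lost without the second KO10 SL, the second iPrE1 or the first iPrE2 library, at 1.77, 1.60 and 1.55. The Pdgfc value moved to 6.28 without the first iPrE1 library and to 6.18 without the second iPrE2 library.

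Set as a percentage of the iPrE mean of 659 CPM, Pdgfra in KO10 SL was at 3.73%, with the libraries at 2.94 to 4.79%. All 10 other PrE markers stood at a higher percentage of their iPrE means. Col4a1, a basement membrane collagen, was at 9.29%, and the endoderm transcription factors Foxa2, Sox17, Gata4, Gata6 and Sox7 were at 9.62%, 10.9%, 12.7%, 12.7% and 17.4%. Cubn and Amn, which form an endocytic receptor, were at 14.5% and 18.9%, Lama1 at 21.8% and Dab2, an endocytic adaptor, at 45.8%. All 10 of those markers were called higher in KO10 SL against E14 ESC and lower on restoration, beside 25.8% and 24.1% of all genes. After the E14 ESC level was taken off both, Pdgfra was at 3.57% and the others at 8.72 to 44.8%. These percentages are a description over 3 libraries of 1 clone, without a test. Percentages of the C57 PrESC level were not taken, and the order may differ there. C57 PrESC had Cubn at 1324 and 4747 CPM and Amn at 259 and 291, against iPrE means of 728 and 73.1.

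**Figure D4:**
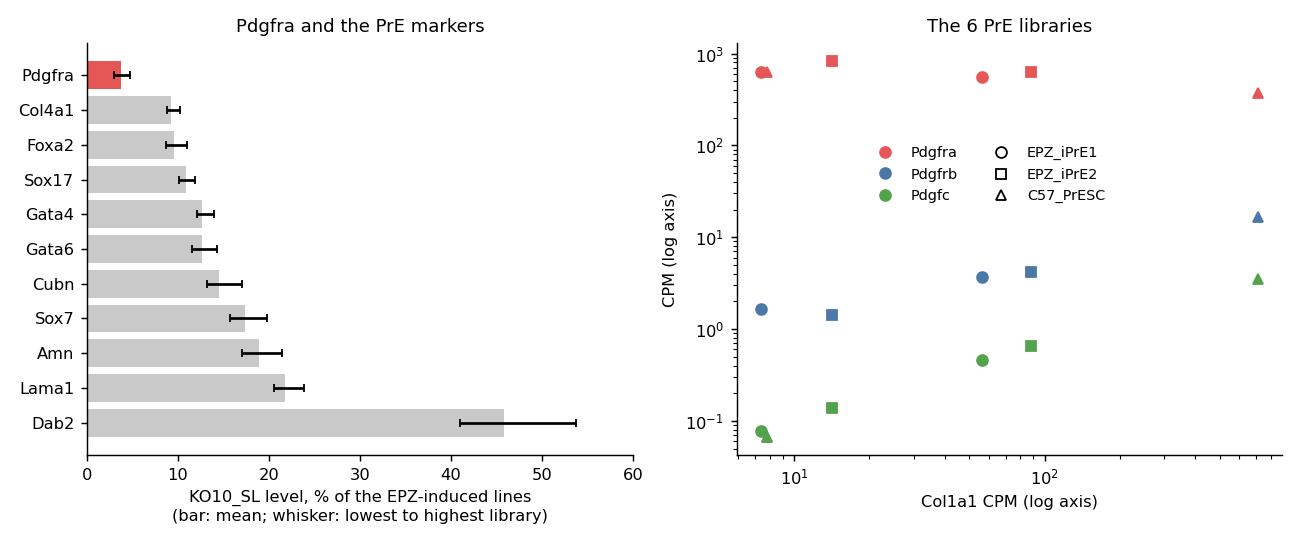
Left, the KO10 SL level of Pdgfra and of 10 PrE markers as a percentage of the mean of the EPZ-induced lines, as a bar with a whisker from the lowest to the highest of 3 libraries, and right, Pdgfra, Pdgfrb and Pdgfc in CPM against Col1a1 in CPM in the 6 PrE libraries, on log axes. Pdgfra is at 2.94 to 4.79% and Dab2 at 41.0 to 53.8%, and the library with Col1a1 at 709 CPM has the highest Pdgfrb and Pdgfc (in the first C57 PrESC library these coincide at 0.0677).

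The 2i groups showed whether the same loss of Ezh2 was seen in another medium. Pdgfra fell in the knockout cells under 2i relative to LIF and serum, and no member passed the test between knockout and wild type under 2i. In KO10 S2iL against KO10 SL the Pdgfra change was -2.40 (SE 0.402, edgeR adjusted p = 2.35e-04), or 5.26-fold, and it was the 1 of 5 members called, beside 36.9% of all genes. KO10 S2iL against TG2A S2iL gave 1.46 (SE 0.545, adjusted p = 0.0525), with the libraries apart (4.53 and 4.81 against 1.98 and 1.40 CPM). By edgeR 0 of 5 members were called there, beside 30.0% of all genes, with 1 at an unadjusted p below 0.05. That gene was Pdgfra, which DESeq2 called (1.52, adjusted p = 0.017). The difference between the knockout changes in the 2 media was -0.99 (SE 0.695, adjusted p = 0.515) for Pdgfra, with 0 of 5 members called by edgeR or DESeq2, 0 at an unadjusted p below 0.05, and 1.95% of all genes called. That test set KO10 SL against TG2A ESC, the wild-type line that was grown in both media. With only the compared groups fitted, all 5 members were called in KO10 S2iL against TG2A S2iL, Pdgfra at 1.47 (adjusted p = 4.05e-04). In that setting 9607 genes were called, against 5263 in the fit over all groups.

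The PrE markers moved with Pdgfra between the media. Their summed level was 400 and 404 CPM in KO10 S2iL, against 1595 to 1871 in KO10 SL, and 144 and 139 in TG2A S2iL, against 294 and 283 in TG2A ESC. Of the 10 markers, 9 were called lower in KO10 S2iL against KO10 SL (median -2.27), beside 17.3% of all genes. In TG2A S2iL against TG2A ESC, 5 were called lower (median -2.31), beside 11.6% of all genes. In KO10 S2iL against TG2A S2iL, 6 were called higher (median 2.63), beside 15.7% of all genes. None of the markers was called the other way in these comparisons. Their part in the Pdgfra values was not tested.

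In the wild-type cells, TG2A S2iL against TG2A ESC, Pdgfra was at -1.40 (SE 0.549, edgeR adjusted p = 0.0761) and Pdgfrb at 1.74 (SE 0.864, adjusted p = 0.159). By edgeR 0 of 5 members were called, beside 23.3% of all genes, with 1 at an unadjusted p below 0.05, and 1 was called by DESeq2. In both cases the gene was Pdgfra. Pdgfrb was at 1.46 (SE 0.742, adjusted p = 0.137) in KO10 S2iL against KO10 SL, so the higher 2i libraries of this receptor lay apart from the others without passing this test in either genotype. Pdgfrb was called in both genotypes, at nearly the same size, with only the compared groups fitted (1.74, adjusted p = 0.00493 in wild type, and 1.40, adjusted p = 5.04e-06 in the knockout) and without a filter on low counts (1.75, adjusted p = 2.53e-07, and 1.48, adjusted p = 2.45e-07).

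The wild-type ESC lines also differed among themselves, which bears on every comparison with them. Pdgfra was lower in E14 ESC than in TG2A ESC by 2.04 (log2 change -2.04, SE 0.51, edgeR adjusted p = 0.00806), Pdgfa was at -0.88 (SE 0.248, adjusted p = 0.0163) and Pdgfb at 1.22 (SE 0.399, adjusted p = 0.0342). These 3 of 5 were called, beside 24.3% of all genes. Each call ended without the second TG2A ESC library, at -1.17, -0.55 and 0.80, that of Pdgfa also without the first or the second E14 ESC library, and that of Pdgfb without the second or the third. C57 ESC against TG2A ESC gave 1.63 for Pdgfra (SE 0.432, adjusted p = 0.00691), 1 of 5 called beside 38.9% of all genes. That call was lost without the first C57 ESC library (0.86), without the first TG2A ESC library (1.12) and with only the compared groups (1.62, adjusted p = 0.132), and the value was 2.51 without the second TG2A ESC library. The summed PrE markers were at 632 and 127 CPM in the C57 ESC libraries, with Pdgfra at 19.7 and 8.08. In TG2A ESC the sums were 294 and 283, with Pdgfra at 2.45 and 6.50. Most of the TG2A ESC sums was Lama1 (171 and 168) and Col4a1 (80.7 and 72.7). Between the first and second TG2A ESC library Gata6 rose from 3.28 to 12.3, Gata4 from 2.86 to 5.14 and Sox17 from 1.56 to 4.4 CPM. Sox7 and Foxa2 were also higher in the second, while Col4a1, Lama1, Dab2, Cubn and Amn were lower. In E14 ESC the summed PrE markers were at 154, 168 and 139. Against TG2A ESC, 6 of the 10 PrE markers were called lower in E14 ESC and none higher (median -1.60). In C57 ESC against TG2A ESC none of the 10 was called (median 0.54). Their part in these differences was not tested.

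The wider pathway was followed in lists that hold no member. The nearest relatives are the other class III receptor tyrosine kinases and their ligands, 8 genes with Pdgfd and Pdgfrl among them. In iPrE1, 2 were called higher and 2 lower (median 1.69, against -0.07 over all genes), in iPrE2 3 and 2 (median 1.55, against -0.11), and in C57 PrESC 2 and 3 (median -1.03, against -0.09). The shares of all genes called were 60.1%, 62.2% and 60.6%. Kitl, the ligand of KIT, fell in all 3, with log2 changes of -3.26, -3.15 and -3.20, and Kit itself fell too, with -1.98, -1.11 and -2.88. Kitl was low, at 1.54 CPM in TG2A ESC and 8.05 in C57 ESC, against 0.154, 0.169 and 0.843 in iPrE1, iPrE2 and C57 PrESC. Flt3l, the ligand of FLT3, rose by 1.93, 1.97 and 1.93, to only 2.72, 2.79 and 4.13 CPM. In KO10 SL against E14 ESC, 2 were called higher and none lower (median 1.25, against 0.07), and on restoration 2 were called lower (median -2.10, against -0.11), beside 48.6% and 45.0% of all genes called. With TG2A ESC as the control of KO10 SL, 1 was called higher and none lower (median 1.69), beside 13.6% and 14.1%.

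Pdgfrl, a receptor-like gene without a kinase domain, was called in opposite directions in the PrE comparisons. It rose by 1.44 in iPrE1 (SE 0.381, edgeR adjusted p = 0.00361) and by 1.13 in iPrE2 (adjusted p = 0.0163), and fell by 1.37 in C57 PrESC (adjusted p = 0.00741). The difference between the EPZ and C57 changes was 2.66 (SE 0.527, adjusted p = 9.24e-04). Like Pdgfra it rose in KO10 SL, by 1.68 (adjusted p = 2.71e-04), and fell on restoration, by 1.90 (adjusted p = 4.64e-04). Under 2i it was higher in the knockout by 2.23 (adjusted p = 4.94e-04). Csf1r, the receptor of colony-stimulating factor, was listed at 0 counts in the E14 ESC libraries and at 1, 8 and 15 counts (rounded) in KO10 SL. Set against a floor of 3 counts over the control group, that was at least 6.54-fold higher (adjusted p = 0.0388). Pdgfd, the fourth ligand, was at its highest in C57 PrESC, at 1.69 and 3.78 CPM.

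Genes that process PDGFs, bind them or act as co-receptors formed a list of 10. In iPrE1, 2 were called higher and 0 lower (median 0.66), beside 27.9% and 32.2% of all genes. In iPrE2 they were 4 and 0 (median 1.11), beside 28.8% and 33.4%, and in C57 PrESC 4 and 0 (median 1.88), beside 27.3% and 33.4%. The counts of higher calls in the PrE cells were thus no larger than, or near, those of genes at large. In KO10 SL against E14 ESC, 7 were called higher and 1 lower (median 1.59), beside 25.8% and 22.7% of all genes. With TG2A ESC as the control they were 3 and 0 (median 1.22), beside 13.6% and 14.1%. Furin, a protease that cleaves growth factor precursors, rose from 8.69 CPM in TG2A ESC to 209 in iPrE1 and 255 in iPrE2, log2 changes of 4.59 and 4.87. In C57 it rose from 32.3 to 221 CPM, by 2.78. Sparc, a matrix protein that binds PDGF-B, rose by 3.53, 3.71 and 3.28 to 2286, 2590 and 3780 CPM. In KO10 SL against E14 ESC, Sparc rose by 2.61, from 97.1 to 594 CPM. The convertase gene Pcsk5 rose by 3.13 and Plau, the gene of the protease urokinase, by 2.79, though only from 0.137 to 1.23 and from 0.224 to 1.70 CPM. On restoration Sparc fell by 2.76 and Pcsk5 by 2.86, 5 of the 10 genes were called lower and none higher (median -1.05, beside 24.1% and 20.9% of all genes), and Plau was at -1.94 without passing the test.

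Of 20 genes that act directly below the receptor, 10 were called higher and 3 lower in iPrE1 (median 0.36), beside 27.9% and 32.2% of all genes. In iPrE2 they were 10 and 5 (median 0.31), beside 28.8% and 33.4%, and in C57 PrESC 7 and 10 (median -0.32), beside 27.3% and 33.4%. Pik3r1, a regulatory subunit of PI3-kinase, rose in all 3, by 4.01, 4.28 and 2.03. The Ras exchange factor gene Sos2 rose by 2.81, 3.05 and 0.66. The adaptor gene Nck2 rose by 2.09 and 2.43 in the iPrE lines and fell by 0.67 in C57. In KO10 SL against E14 ESC, 1 was called higher and 10 lower (median -0.29), beside 25.8% and 22.7% of all genes. With TG2A ESC as the control they were 1 and 4 (median -0.14), beside 13.6% and 14.1%. E14 ESC was itself called higher than TG2A ESC for 7 of the 20 genes and lower for 1, beside 11.2% and 13.1%. On restoration 10 were called higher and 1 lower (median 0.31), beside 20.9% and 24.1%. The docking protein gene Gab1 was the most changed of those named, falling by 2.94 from 332 to 43.2 CPM and rising by 3.12 to 375 CPM with Ezh2 restored. Yes1, a Src-family kinase gene, fell by 1.17 and rose by 1.43, and Sos1 fell by 1.01 and rose by 1.01. Under 2i, 4 were called higher and 1 lower between knockout and wild type (median 0.05, against 0.01 over all genes), and Gab1 fell by 0.66.

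Of 9 tested genes that restrain the receptors, 3 were called higher and 4 lower in iPrE1 (median -0.19), 4 and 4 in iPrE2 (median 0.28) and 3 and 4 in C57 PrESC (median -0.04). In all genes 60.1%, 62.2% and 60.6% were called in either direction, so these counts were not far from those of genes at large. The adaptor gene Sh2b3 rose by 1.55, 1.42 and 1.85 and the ubiquitin ligase gene Cblb by 1.14, 1.10 and 0.76, while Cbl fell, with -0.38, -1.12 and -0.64. In KO10 SL, 1 was called higher and 3 lower (median -0.33, beside 25.8% and 22.7% of all genes), among them Cbl by -1.33 and the phosphatase gene Ptpn12 by -0.45. Both rose with Ezh2 restored, by 1.26 and 0.78, when 4 of the 9 were called higher and none lower (median 0.29, beside 20.9% and 24.1% of all genes). With TG2A ESC as the control of KO10 SL, none was called higher and 3 lower (median -0.07), beside 13.6% and 14.1%.

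Around Pdgfra on chromosome 5, 10 neighbouring genes were examined, from Scfd2 with its start 621 kb before that of Pdgfra to Clock at 1152 kb after it. In iPrE1, 4 were called higher and 3 lower (median 0.05), in iPrE2 4 and 2 (median 0.01), in C57 PrESC 4 and 4 (median 0.24), in KO10 SL 3 and 3 (median 0.29), and on restoration 2 and 3 (median -0.09). Beside the 60.1%, 62.2%, 60.6%, 48.6% and 45.0% of all genes called in these comparisons, the counts were near those of genes at large. With TG2A ESC as the control of KO10 SL, 1 was called higher and 2 lower (median 0.42), beside 13.6% and 14.1%. None of the 3 neighbours named for the PrE cells changed by as much as Pdgfra. Chic2, 108 kb before it, rose by 1.09, 1.01 and 1.37 in iPrE1, iPrE2 and C57, and Kit, 423 kb after it, fell as given for the class III receptors. Lnx1, 449 kb before, fell in all 3, with -3.45, -2.80 and -3.71, though only from 2.60 CPM in TG2A ESC and 2.54 in C57 ESC. Gsx2, a homeobox gene 77 kb before Pdgfra, rose in KO10 SL by 3.60 (edgeR adjusted p = 0.00833), though only from 0.0798 to 0.921 CPM, and was at -2.70 on restoration (adjusted p = 0.055). Clock fell by 0.96 in KO10 SL and rose by 1.26 with Ezh2 restored.

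**Figure D5:**
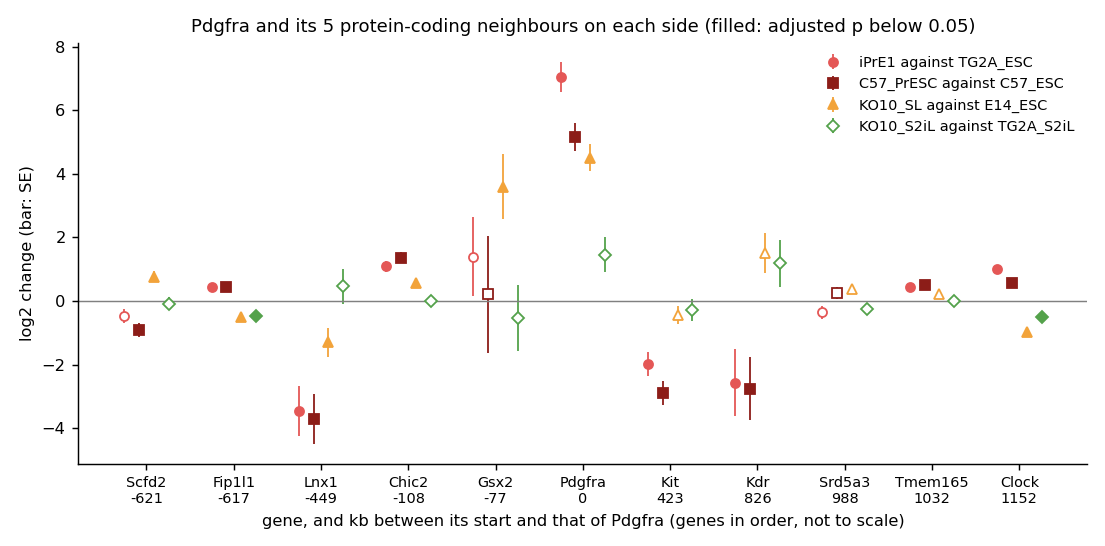
Log2 change of Pdgfra and of its 10 neighbours in gene order, with the distance in kb between their starts and that of Pdgfra under each name, in iPrE1, C57 PrESC, KO10 SL and KO10 S2iL against their controls (bars, SE; filled where the adjusted p was below 0.05). In iPrE1 and C57 PrESC, Pdgfra is at 7.04 and 5.16, Chic2 at 1.09 and 1.37 and Lnx1 at -3.45 and -3.71.

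The genes whose group means followed each member most closely were listed by Pearson's r of log2(CPM + 1) over the 10 groups, among 11160 genes. For Pdgfra these were Vmp1 (0.992), Ubash3b (0.991), Foxq1 (0.990), Serpinh1 (0.990) and Runx1 (0.990). For Pdgfc they were Psma8 (0.989), Kctd15, Tenm3, Fgd1 and Ywhag. The other members had less close companions for Pdgfa (Rabep2 at 0.928) and a close one for Pdgfrb (Ap2a1 at 0.975). The 3 PrE groups set apart from 7 others weigh heavily in such values for Pdgfra and Pdgfc, and they are given as a description only.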

How the data were processed

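The authors deposited estimated counts, not normalized, as a table of 22 libraries by 55367 symbols. Trim Galore, STAR 2.7.6a, DESeq2 and mm10 are named, per the submitters' processing notes, and neither the counting tool nor its annotation or strandedness is given in the sources used here. Per the labels' protocols, RNA was extracted with Trizol and depleted of rRNA, whereas the molecule label reads polyA RNA. Of the symbols, 5.71 to 7.26% had fractional values in a library. Counts were rounded, filtered (filterByExpr, 17547 genes kept), scaled by TMM and fitted with edgeR 4.0.16 (R 4.3.3; glmQLFit, glmQLFTest), with 1 coefficient per group over all 22 libraries and 12 residual degrees of freedom. Adjusted p-values are Benjamini-Hochberg within a comparison. The scripts were tested on simulated data. CPM was computed on the library total multiplied by its TMM factor. Exon lengths are from GENCODE M21, and promoters from RefSeq.

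The members and gene lists were chosen with earlier results of these data known. From each pathway list, up to 3 called genes with the largest change in the iPrE comparisons and in KO10 SL were named; Fap, Tcf21 and Pdgfd were named after their values were seen. Some genes that this rule names are not reported here. Alternatives were DESeq2 1.42.0, RLE scaling, no filter, the replicate number as a block, only the compared groups, and leaving out each library. No group had 4 libraries, so single libraries were not tested as outliers.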

Additional observations from a re-analysis of the deposited data

Results flagged for a closer look

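The change of Pdgfra between ESC and PrE cells differed between the origins, by 2.03 on the log2 scale (SE 0.534, edgeR adjusted p = 0.00703), being larger in the EPZ-induced E14 lines than in C57. The changes were 7.04 in iPrE1 and 7.34 in iPrE2 against 5.16 in C57 PrESC. Mean levels were 4.47 CPM in TG2A ESC and 13.9 in C57 ESC, and 591, 727 and 496 CPM in iPrE1, iPrE2 and C57 PrESC. The difference was 1.25 (adjusted p = 0.0706) without the first C57 ESC library and 2.90 without the second TG2A ESC library, and 2.04 (adjusted p = 0.0705) with only the compared groups fitted.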

How the results depend on the processing

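Of 824 member values under the alternatives, 726 kept their direction and side of the threshold, 23 lost a call, 50 gained one and 25 changed sign. RLE scaling shifted the values by -0.048 to 0.055 (log2) relative to TMM. Low counts limit Pdgfc, Pdgfrb and Pdgfb in the PrE cells. Where a setting changed a call, the cause was not tested.

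By DESeq2, 1063 genes were called between iPrE2 and iPrE1 (686 by edgeR), 184 between rescued KO10 and E14 ESC (19) and 992 for the difference between the knockout changes in the 2 media (343). It called 2 members for the EPZ change less the C57 change, 2 in KO10 SL against E14 ESC, and 1 each in KO10 S2iL against TG2A S2iL and TG2A S2iL against TG2A ESC, where Pdgfra was at 1.52 and -1.41. With RLE scaling Pdgfra was called in KO10 S2iL against TG2A S2iL, at 1.51, as the 1 member.

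Without a filter on low counts, 1143 genes were called between iPrE2 and iPrE1, 389 between rescued KO10 and E14 ESC and 923 for the difference between media. Members called then were 3 each for the EPZ change less the C57 change, KO10 SL against E14 ESC, KO10 SL against TG2A ESC, TG2A S2iL against TG2A ESC and KO10 S2iL against KO10 SL. They were 2 each in KO10 S2iL against TG2A S2iL and C57 ESC against TG2A ESC, and 1 each between rescued KO10 and E14 ESC and for the difference between media. Pdgfra was called at 1.52 in KO10 S2iL against TG2A S2iL, at -1.39 in TG2A S2iL against TG2A ESC and at -0.98 for the difference between media.

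With only the compared groups fitted, genes called were 5383 in C57 (10642 over all groups), 28 between iPrE2 and iPrE1 (686), 3041 for the EPZ change less the C57 change (6167), 551 between rescued KO10 and E14 ESC, 9607 in KO10 S2iL against TG2A S2iL (5263), 10037 in KO10 S2iL against KO10 SL (6482), 1795 for the difference between media and 1692 in C57 ESC against TG2A ESC (6831). Members called were 2 in C57, 0 for the EPZ change less the C57 change, 3 in KO10 SL against E14 ESC, 2 against TG2A ESC, 1 between rescued KO10 and E14 ESC, 5 in KO10 S2iL against TG2A S2iL, 1 in TG2A S2iL against TG2A ESC, 4 in KO10 S2iL against KO10 SL and 0 in C57 ESC against TG2A ESC. Pdgfra was at 2.04 (call lost) for the EPZ change less the C57 change, at 1.47 (called) in KO10 S2iL against TG2A S2iL and at 1.62 (call lost) in C57 ESC against TG2A ESC.

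Samples with the same replicate number had deviations that correlated by -0.363 to 0.29, so the numbers were not taken to pair them. With the replicate number as a block, Pdgfra was called in KO10 S2iL against TG2A S2iL, at 1.48, as the 1 member. Genes called were 6 between rescued KO10 and E14 ESC and 165 for the difference between media. Pdgfb in E14 ESC against TG2A ESC was at 1.13 without a call, and Pdgfrb between iPrE2 and iPrE1 was at -0.04 against 0.07.

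Leaving out 1 library at a time moved Pdgfra from 0.86 to 2.51 in C57 ESC against TG2A ESC, from -2.56 to -1.17 in E14 ESC against TG2A ESC, from 1.25 to 2.90 for the EPZ change less the C57 change and from -1.93 to -0.54 in TG2A S2iL against TG2A ESC. Pdgfrb ran from -5.73 to 2.08 in C57, from -3.18 to 4.62 for the EPZ change less the C57 change, from -0.88 to 0.77 between iPrE2 and iPrE1 and from -0.28 to 0.17 between rescued KO10 and E14 ESC. Pdgfa ran from -0.47 to 0.52 in C57 ESC against TG2A ESC, from -0.55 to 0.02 in KO10 SL against TG2A ESC and from -0.44 to 0.14 for the difference between media. Pdgfb ran from -0.05 to 1.02 in C57 ESC against TG2A ESC, from -1.32 to 0.23 in iPrE1, from -0.76 to 0.31 between media and from -0.02 to 0.25 on restoration. Pdgfc ran from -0.31 to 0.97 in E14 ESC against TG2A ESC, from -2.48 to 3.09 for the EPZ change less the C57 change, from -1.13 to 0.15 in KO10 SL against TG2A ESC, from -0.95 to 2.27 between iPrE2 and iPrE1 and from -0.95 to 0.33 between media.

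Over the same omissions, genes called were 1676 to 4088 in E14 ESC against TG2A ESC, 3847 to 5572 in KO10 S2iL against KO10 SL, 2847 to 3156 in KO10 S2iL against TG2A S2iL, 2076 to 3544 in TG2A S2iL against TG2A ESC, 379 to 407 between iPrE2 and iPrE1, 44 to 386 between media and 1 to 20 between rescued KO10 and E14 ESC. Members called were 0 to 1 in C57 ESC against TG2A ESC, 0 to 3 in E14 ESC against TG2A ESC, 1 to 3 for the EPZ change less the C57 change, 1 to 2 in KO10 SL against E14 ESC and 0 to 1 in TG2A S2iL against TG2A ESC. Where a group was left with 1 library, that library was assumed to vary like the other groups.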
